A study of Mus musculus with 14 samples.

Results

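Blastocysts labelled micromanipulation control were compared with blastocysts grown in the media ISM1 and ISM2, with 3 arrays in each group. These 6 arrays were chosen by their titles out of 14 mouse Illumina bead arrays in 5 groups. The 8 others were 3 labelled oviduct, 2 labelled KSOM(aa) and 3 labelled HTF/MultiBlast, and they entered the same linear model. The labels give the ISM1/ISM2 samples as blastocysts, while the cell type of the control is given as the group name alone. The sources used here do not give the control's medium or what the micromanipulation was, nor, for both groups, the strain, the age of the embryos or the number of embryos per array. The study's title speaks of sperm injection, embryo culture and blastocyst abnormalities in mice. The comparison sets the transcript levels of embryos labelled as a micromanipulation control beside those of embryos from one culture system. Handling and medium may both differ between the 2 groups and cannot be told apart here. The series text calls the replicates of each group biological, but all 3 control arrays are described as replicate 1 and may be repeats of 1 sample. The p-values then measure only the spread between arrays as given, and calls are therefore also given with the control averaged to 1 sample.

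The blastocyst is a hollow ball with an outer epithelium, the trophectoderm, which pumps fluid into the cavity and later forms placenta. Inside lie the epiblast, which forms the fetus, and the primitive endoderm, which lines the cavity side of the inner cell mass and secretes basement membrane. Embryos of this stage take up amino acids from their surroundings. Cells also carry an amino acid and stress response in which the factor ATF4 binds promoters of amino acid transporters, synthesis enzymes and tRNA synthetases through C/EBP-ATF elements.

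Both groups carried blastocyst transcripts. All 7 blastocyst markers looked up (*Pou5f1*, *Nanog*, *Cdx2*, *Gata3*, *Krt8*, *Krt18* and *Gata6*) were detected on all 6 arrays. Detection means a deposited detection p under 0.01. The summed level of those 7 was 42530 to 44810 on the control arrays and 34950 to 42050 on the ISM1/ISM2 arrays (linear intensity). Markers of stroma (0 of 3 detected on any of the 6 arrays) and of cumulus and granulosa cells (0 of 4) were at background. Of the markers of oviduct epithelium, *Ovgp1*, *Pax8*, *Tppp3* and *Krt5* were undetected on all 6 arrays, *Foxj1* was detected on 1 array of each group, and *Wfdc2* and *Elf3*, genes of many epithelia, were detected on all. The summed level of these 7, nearly all of it from *Wfdc2* and *Elf3*, was 11060 to 11700 in the control and 8225 to 11310 in ISM1/ISM2. The smooth muscle marker *Myh11* was undetected throughout, and the actin gene *Acta2* was detected on 1 control array. *S100a9*, of myeloid cells, was detected on 1 control array as well, while *Ptprc*, *Hba-a1* and *Cd52* were undetected on all 6. Median intensity was 125.6 to 146.7 on the control arrays and 118.4 to 136.9 on the ISM1/ISM2 arrays, and the detected share of all probes was 35.7% to 36.39% and 35.28% to 36.44%. Precision is limited throughout by the few arrays per group.

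Of 25697 probes, 10975 had a detection p under 0.01 on at least 2 of the 14 arrays. They were reduced to 8669 units, each a gene represented by its brightest probe (8025) or a probe with no gene symbol (644). Of these, 6397 were detected on all 6 arrays and 273 on none of them. Differences are log2 normalized intensity in the control minus that in ISM1/ISM2, with the SE of limma's fit and its adjusted p, and a unit passed at an adjusted p under 0.05. A level is one probe's brightness, so levels of different genes were not set against each other. The marker sums above compare arrays and mostly follow their brightest probes.

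The control and ISM1/ISM2 differed at 1455 units, or 16.8% of those tested. The control was higher at 668 (7.71%) and lower at 787 (9.08%), and 913 differed by at least 2-fold (339 without background correction, 560 with detection on all 6 arrays, 286 with the control averaged). An unadjusted p under 0.05 was reached by 2581. All control arrays lay on one side of all ISM1/ISM2 arrays at 1449 of the 1455, against 44% of all units tested. Of the passing units, 181 were undetected on every control array and 110 on every ISM1/ISM2 array. Their log2 difference depends on the background correction and is given below as "at least" a fold. That fold is a bound within the main processing alone, and some alternatives gave smaller differences. Over the alternatives the log2 difference ran from 3.835 to 7.383 for *Slc7a3* and from -5.977 to -1.986 for *Oasl2*. The median difference over all units was 0.025 and the differences ran from -4.24 to 6.13. With the control averaged to 1 sample, 286 units passed, 134 higher and 152 lower, and all 286 were among the 1455. Leaving out control replicate 2 or 3 brought the count to 968 and 926.

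**Figure D1:**
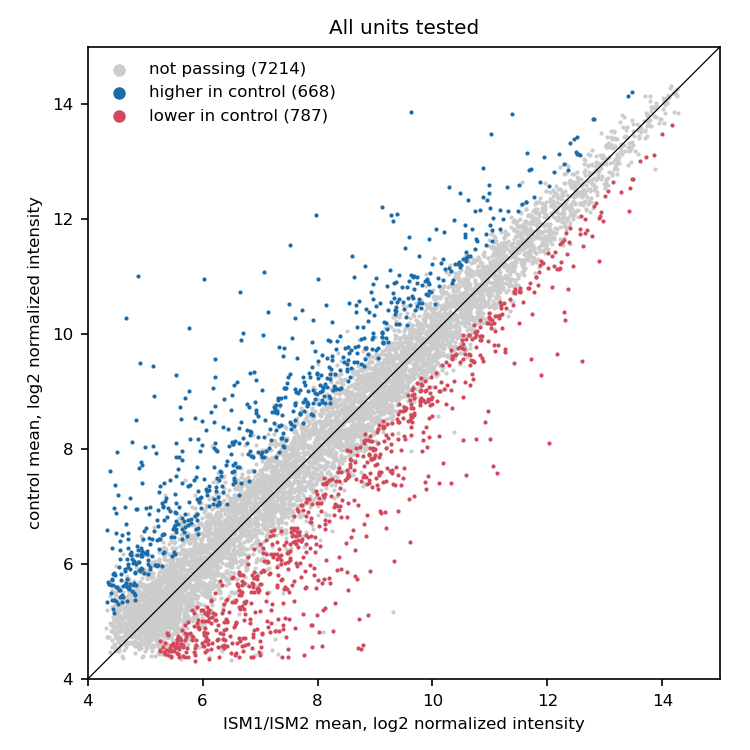
Mean log2 normalized intensity of each of the 8669 units in ISM1/ISM2 (x axis) and in the control (y axis), 3 arrays each. Units that passed limma's test are blue where the control was higher (668) and red where it was lower (787). Units far from the diagonal include some with one group near the background of about 4 to 5, such as *Slc7a3* and *Oasl2*, and some that are bright in both groups, such as *BC051665* and *Tex19.2*.

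Amino acid transport, the ATF4 response and basement membrane led the transcripts that were higher in the control. The lists of primitive endoderm, trophectoderm and unfolded protein response genes also had members passing in that direction. Passing members of the lists of sterol synthesis, antioxidant defence, oocyte, germline and interferon-inducible genes were all lower in the control, while betaine and choline metabolism and imprinted genes had passing members in both directions. Ribosomal proteins, the respiratory chain and the cell cycle had few passing members. The lysosome, epiblast, interferon, trophectoderm epithelium, glycolysis and p53 lists had 22.2% to 28.6% passing, near the 16.8% of all units.

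**Figure D2:**
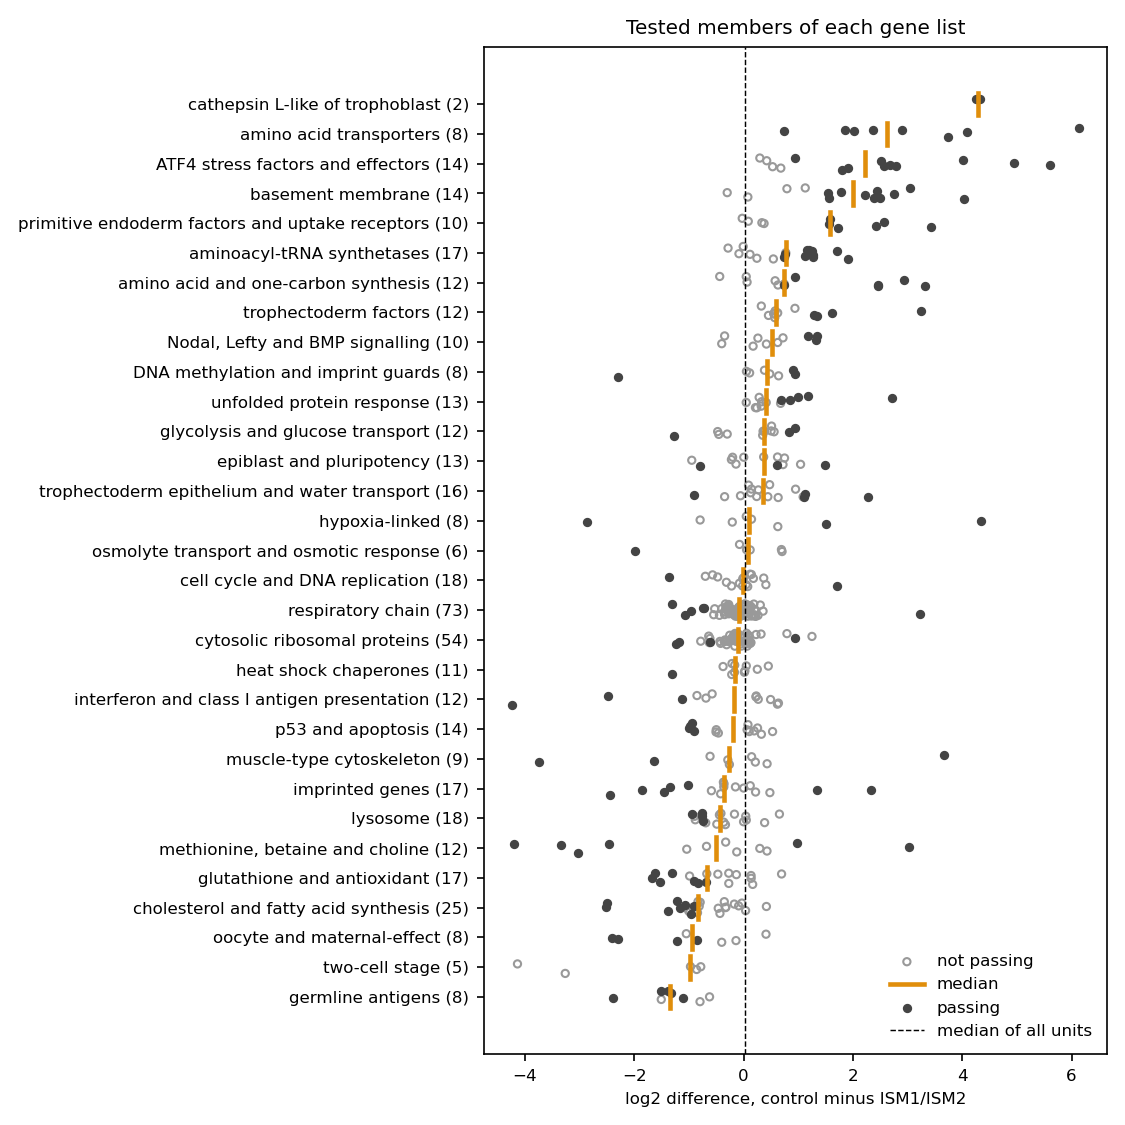
Log2 difference, control minus ISM1/ISM2, of each tested member of 31 gene lists (number tested in brackets). Filled points passed limma's test, open points did not, the orange bar is the list's median and the dashed line the median of all units, 0.025. Amino acid transporters, ATF4 factors and basement membrane genes lie to the right, and germline, oocyte and sterol synthesis genes mostly to the left.

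The largest difference in favour of the control was in *Slc7a3*, a transporter of the cationic amino acids arginine and lysine. Its log2 levels were 10.76, 10.92 and 11.36 in the control and 4.65, 5.23 and 4.77 in ISM1/ISM2. The control arrays were bright and the ISM1/ISM2 arrays were all undetected. The control was at least 49.7-fold higher (adjusted p = 8.25e-08). *Nupr1*, a small nuclear protein induced by stress, had 10.13, 10.03 and 10.69 in the control and 4.62, 4.88 and 4.5 in ISM1/ISM2. It was again undetected on all 3 ISM1/ISM2 arrays and at least 30-fold higher in the control (adjusted p = 1.02e-06). *Chac1*, an enzyme that degrades glutathione, had 10.96, 10.88 and 11.07 against 6.95, 5.19 and 5.94, where ISM1/ISM2 replicate 2 was undetected and the ISM1/ISM2 arrays spread widely. The difference was 4.94 ± 0.38 (adjusted p = 3.59e-06).

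The next gene with a symbol was *Vegfa*, a growth factor of blood vessels, with 9.93, 10.16 and 10.24 in the control and 5.37, 5.91 and 6.01 in ISM1/ISM2. It was detected on all 6 arrays, and its difference was 4.35 ± 0.46 on the brightest probe and 2.31 on its other probe. *Slc38a2*, a sodium-coupled transporter of small neutral amino acids, had 10.39, 10.70 and 11.12 against 6.58, 6.69 and 6.66, a difference of 4.09 ± 0.32. Its 2 other probes gave 2.74 and 0.52, so the size rests on the probe chosen. *Slc22a4*, a carrier of the antioxidant ergothioneine, differed by 3.78 ± 0.22 and was detected on 1 ISM1/ISM2 array. *Fhl1*, a LIM protein best known from muscle, was undetected on all 3 ISM1/ISM2 arrays and at least 8.75-fold higher in the control (adjusted p = 0.000146), with 3.45 log2 on its other probe.

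On the other side, *Oasl2*, an interferon-inducible antiviral gene, had 4.31, 4.66 and 4.61 in the control and 9.22, 8.24 and 8.84 in ISM1/ISM2. It was undetected in the control and on every ISM1/ISM2 array well above background, so that ISM1/ISM2 was at least 10.5-fold higher (adjusted p = 7.44e-07). *Tex19.2*, a gene best known from germ cells and placenta, had 8.40, 8.38 and 7.58 against 12.31, 11.97 and 11.80, with every array detected, a difference of -3.91 ± 0.28. *Actn2*, the actinin of striated muscle, had 5.43, 5.05 and 4.88 against 8.94, 8.68 and 8.99. It was detected on 1 control array, and the difference was -3.75 ± 0.26. *Mocos*, which activates molybdenum enzymes, differed by -3.67 ± 0.52 and was detected on control replicate 2 alone among the control arrays. *Gm16367* differed by -3.54 ± 0.32 (-2.92 on its other probe).

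Several further genes were undetected on all control arrays. *Arg2*, the mitochondrial arginase, was at least 6.55-fold higher in ISM1/ISM2. *Cbr3*, a carbonyl reductase, was at least 7.45-fold higher, *Kif3c*, a kinesin motor subunit, at least 5.79-fold and *Krt14*, a keratin of basal epithelia, at least 5.29-fold. *Gulo*, the enzyme of the last step of vitamin C synthesis, was detected on all 6 arrays at 6.11, 6.40 and 5.65 in the control and 8.81 to 9.89 in ISM1/ISM2, a difference of -3.27 ± 0.43. The 12 genes taken in each direction had to pass without any 1 of the 6 arrays, so that larger differences with a wide spread, such as that of *Tcstv3* below, are not among them. With the control averaged to 1 sample, *Krt14* no longer passed (adjusted p = 0.0652) and the 23 others did.

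**Figure D3:**
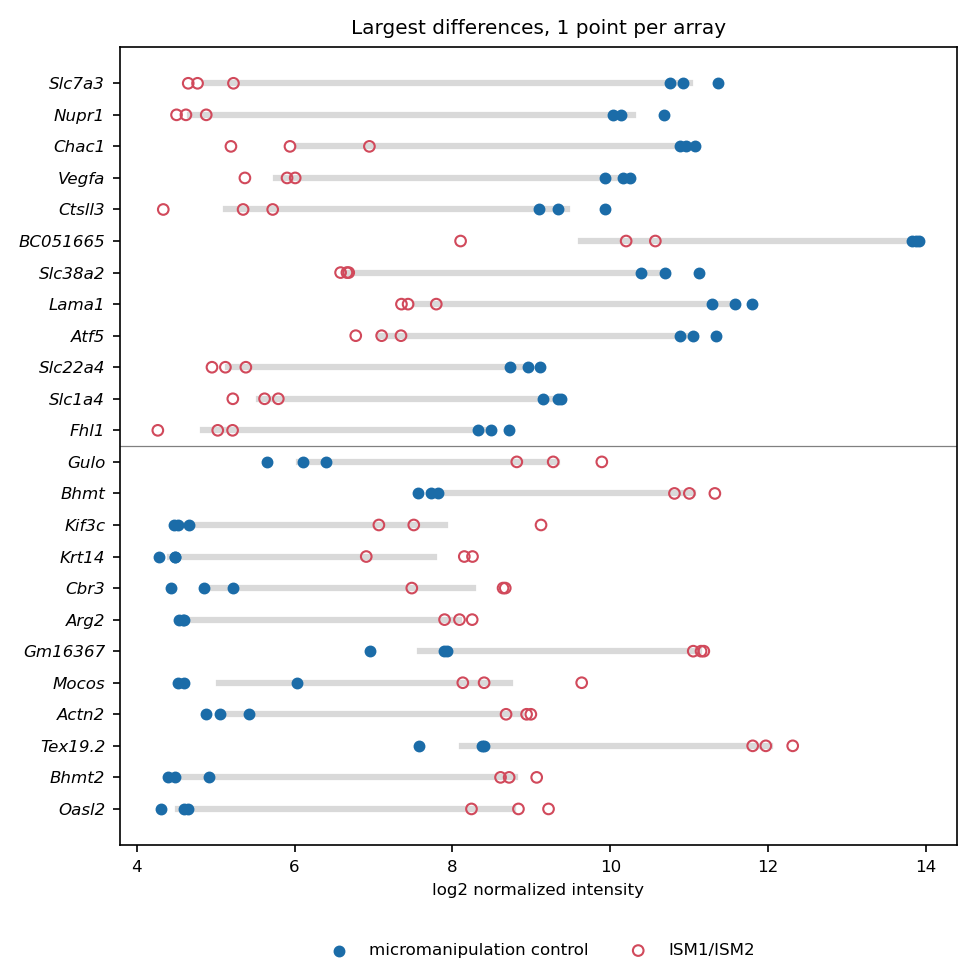
Log2 normalized intensity on each control array (filled) and each ISM1/ISM2 array (open) for the 12 largest differences in each direction among genes that passed in every fit without 1 of the 6 arrays. Grey bars join the group means. The groups do not overlap for any of the 24, which the choice of genes required, and ISM1/ISM2 levels of *Slc7a3* and *Nupr1* and control levels of *Oasl2*, *Arg2* and *Krt14* lie between 4.2 and 5.3.

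All 8 tested amino acid transporters were higher in the control, with a median difference of 2.63 against 0.025 over all units. Of 12 transporter genes on the array, the 4 others were not detected often enough to be tested. *Slc7a5* and *Slc3a2* encode the light and heavy chain of a carrier for large neutral amino acids. *Slc7a5* had 11.16, 11.00 and 10.82 in the control and 9.03, 8.38 and 8.48 in ISM1/ISM2, and *Slc3a2* had 10.50, 10.54 and 10.70 against 8.81, 8.77 and 8.61. Both pairs of groups were well separated, with differences of 2.36 ± 0.28 and 1.85 ± 0.22. *Slc1a4*, a neutral amino acid exchanger, differed by 3.75 ± 0.28, *Slc6a9*, the glycine transporter, by 2.90 ± 0.43, and *Slc7a8*, another light chain, by 2.02 ± 0.26 (0.96 on its other probe). *Slc7a6* had the smallest difference, 0.74. In the fit with the control averaged to 1 sample all but *Slc7a6* passed (adjusted p = 0.205).

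Of 12 genes of amino acid and one-carbon synthesis, 6 were higher in the control and 0 lower, with a median of 0.74. *Asns*, which makes asparagine, had 13.45, 13.55 and 13.44 in the control and 11.16, 10.90 and 10.99 in ISM1/ISM2. Replicates of *Asns* lay within 0.3 of each other, and the difference was 2.46 ± 0.16 (adjusted p = 1.11e-06), with 0.79 and 2.96 on its other probes. The mitochondrial folate enzymes *Mthfd2* and *Shmt2* differed by 2.94 ± 0.28 and 2.45 ± 0.31. *Aldh18a1*, which starts proline synthesis, had 9.81, 9.88 and 10.39 against 7.11, 6.20 and 6.81 and differed by 3.32 ± 0.37. *Phgdh*, the first enzyme of serine synthesis, differed by 0.05, while *Psat1*, which acts after it, differed by 0.93 ± 0.19 (adjusted p = 0.00487, and 0.106 with the control averaged). *Cth* and *Cbs*, which make cysteine from homocysteine, differed by 0.06 and 0.74 without passing (adjusted p = 0.949 and 0.371).

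The cytosolic aminoacyl-tRNA synthetases, which load tRNAs with their amino acids, had 10 of 17 members higher in the control and 0 lower (median 0.77). The count was 6 to 11 over the fits with 1 array left out and 3 with the control averaged. The largest differences were of *Lars* and *Nars*, for leucine and asparagine, at 1.91 ± 0.28 and 1.72 ± 0.21. *Wars* (tryptophan) had 10.55, 10.50 and 10.40 against 9.48, 9.5 and 9.11 and differed by 1.12 ± 0.17, with 1.5 and 1.19 on its other probes. *Tars* (threonine) differed by 1.27 ± 0.21, a call that ended with the control averaged (adjusted p = 0.0648). *Hars*, *Kars* and *Qars* differed by -0.01, -0.29 and -0.09 and did not pass. The list therefore did not move as one.

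Among factors and effectors of the ATF4 response, 10 of 14 were higher in the control and 0 lower, with a median of 2.21. *Atf4* itself differed by 0.68 without passing (adjusted p = 0.269). *Atf5*, a related factor, had 11.34, 11.04 and 10.88 in the control and 7.35, 7.10 and 6.78 in ISM1/ISM2, a difference of 4.01 ± 0.49. *Ddit3*, the stress factor CHOP, had 8.88, 9.21 and 9.26 against 5.91, 6.67 and 7.09 and differed by 2.56 ± 0.37 (2.39 on its other probe). For both genes all 3 control arrays were above all ISM1/ISM2 arrays. *Cebpb*, a dimer partner of ATF4, differed by 1.91 ± 0.24 and was detected on 1 ISM1/ISM2 array. *Ddit4*, an inhibitor of mTOR signalling, differed by 2.68 ± 0.56. *Jdp2*, a bZIP factor, differed by 2.52 ± 0.40. *Stc2*, a secreted glycoprotein induced by stress, and *Vldlr*, a lipoprotein receptor, were undetected in ISM1/ISM2 and at least 4.92-fold and 2.81-fold higher in the control. The calls of *Ddit4* and *Vldlr* ended with the control averaged (adjusted p = 0.134 and 0.15). *Sesn2*, *Cebpg* and *Eif4ebp1* did not pass, at 0.30, 0.42 and 0.53.

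The C/EBP-ATF element stands in the promoters of several of these genes, and the stretches below show it where it was found. A RefSeq window (GRCm38.p6, 250 bases before to 50 after the gene start) was matched for 39 of the 51 tested members of the 4 lists above. The letters searched were TGATGNAA, or TTNCATCA on the other strand. They were present for 10 of the 27 passing members with a window and for 2 of the 12 that did not pass. Of all 27025 genes with a window, 4.51% held them. With windows for fewer than 80% of members, these shares do not describe the lists. A match is a string of letters, and binding was not measured. Capitals mark the match, and every stretch is written 5' to 3' on the gene's strand, with a flank of 40 bases on each side unless the stretch reaches the start. The *Nupr1* stretch is chr7:126625533-126625620 (minus strand), the *Chac1* stretch chr2:119351009-119351096 (plus), the *Asns* stretch chr6:7693210-7693272 (minus), the *Jdp2* stretch chr12:85599343-85599415 (plus), the *Vldlr* stretch chr19:27216780-27216867 (plus) and the *Aars* stretch chr8:111033690-111033777 (plus).
Nupr1: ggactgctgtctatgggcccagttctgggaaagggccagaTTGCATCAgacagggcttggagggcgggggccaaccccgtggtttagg
Chac1: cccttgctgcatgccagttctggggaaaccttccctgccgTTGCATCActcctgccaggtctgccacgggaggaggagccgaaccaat
Asns: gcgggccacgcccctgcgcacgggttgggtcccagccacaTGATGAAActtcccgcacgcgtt
Jdp2: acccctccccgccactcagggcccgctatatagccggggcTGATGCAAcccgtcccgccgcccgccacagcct
Vldlr: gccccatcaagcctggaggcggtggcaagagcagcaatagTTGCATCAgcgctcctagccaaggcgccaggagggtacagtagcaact
Aars: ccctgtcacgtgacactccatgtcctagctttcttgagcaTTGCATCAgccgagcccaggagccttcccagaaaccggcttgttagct

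*Got1*, an aspartate aminotransferase whose window holds TTGCATCA as well, differed by -0.44 and did not pass. *Aars*, the alanine tRNA synthetase, had a second match past its start and was higher in the control by 1.27 ± 0.23 log2 (adjusted p = 0.0919 with the control averaged). The same 8 letters, TTGCATCA or TGATGCAA on the other strand, thus occur in windows of passing genes with differences from 1.15 to 5.61. They also occur in those of *Got1* and of *Yars*, the tyrosine tRNA synthetase (0.12), which did not pass.

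The unfolded protein response handles misfolded proteins in the endoplasmic reticulum and shares part of its targets with ATF4. Of 13 tested members 5 were higher in the control and 0 lower, with a median of 0.41, and 3 were higher without ISM1/ISM2 replicate 2 or control replicate 3. *Herpud1*, which helps to degrade misfolded proteins, had 12.07, 11.96 and 12.25 in the control and 9.42, 9.31 and 9.41 in ISM1/ISM2, with both groups tight. It differed by 2.71 ± 0.21 (2.91 on its other probe). *Xbp1*, a transcription factor of the response, differed by 1.18 ± 0.22, and *Syvn1*, a ubiquitin ligase, by 0.84 ± 0.20. Both calls ended with the control averaged (adjusted p = 0.103 and 0.204), when 1 member passed. The chaperone *Hspa5*, a standard marker of the response, differed by 0.68 without passing (adjusted p = 0.133).

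Primitive endoderm genes were higher in the control at 6 of 10 tested members and lower at 0, with a median of 1.57. In bulk samples fewer cells of a type and less RNA per cell cannot be told apart. *Sox17* and *Sox7* encode factors of the lineage and *Pdgfra* a receptor that marks it. *Sox7* had 7.16, 6.82 and 7.5 in the control and was undetected in ISM1/ISM2, so that the control was at least 3.44-fold higher (adjusted p = 2.75e-05). *Sox17* had 9.82, 10.05 and 9.86 against 8.41, 7.68 and 8.47, a difference of 1.72 ± 0.34 (1.57 on its other probe), and *Pdgfra* differed by 1.57 ± 0.30. Neither call held with the control averaged (adjusted p = 0.113 and 0.109). *Foxq1*, a forkhead factor, had 7.89, 8.0 and 8.43 against 5.33, 5.22 and 6.04 and differed by 2.58 ± 0.25. *Srgn*, a secretory proteoglycan, was undetected in ISM1/ISM2 and at least 5.94-fold higher in the control, with 0.51 log2 on its other probe. *Amn*, a partner of the uptake receptor cubilin, differed by 1.58 ± 0.27 (adjusted p = 0.0741 with the control averaged). *Gata6*, which starts the lineage, differed by 0.33 ± 0.18 and did not pass (adjusted p = 0.245), and neither did *Dab2* and *Hnf4a*, at 0.37 and 0.09.

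Basement membrane genes had 10 of 14 members higher in the control and 0 lower, with a median of 2.00. The laminin chains of the early embryo were among them. *Lama1* had 11.79, 11.58 and 11.29 in the control and 7.35, 7.44 and 7.79 in ISM1/ISM2, a difference of 4.02 ± 0.24 (adjusted p = 7.44e-07). *Lamb1* had 9.36, 9.70 and 9.81 against 7.19, 7.46 and 7.58, and *Lamc1* had 8.28, 8.06 and 8.18 against 5.53, 5.72 and 6.09. All 3 laminin genes were separated by over 1.5 log2 between the nearest arrays, with differences of 2.22 ± 0.24 for *Lamb1* and 2.39 ± 0.30 for *Lamc1*. The collagen chains *Col4a1* and *Col4a2* differed by 1.55 ± 0.18 and 1.78 ± 0.30, the nidogen *Nid1* by 2.45 ± 0.53 and *Sparc*, a collagen-binding protein, by 2.50 ± 0.32. *Hspg2*, which encodes perlecan, and *Serpinh1*, the collagen chaperone, were undetected in ISM1/ISM2 and at least 6.31-fold and 5.89-fold higher in the control. *Nid2*, the second nidogen, differed by -0.30 and did not pass, nor did *P4ha1* and *P4ha2*, which hydroxylate collagen (0.79 and 0.08). The count of passing members was 10 or 11 in every fit with 1 array left out and 7 with the control averaged, without *Nid1* and *Col4a2* (adjusted p = 0.152 and 0.0655).

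Trophectoderm factors had 4 of 12 members higher in the control and 0 lower (median 0.60), and 7 higher with only the 6 arrays in the fit or 9 with array weights. *Elf5* and *Eomes* maintain trophoblast stem cells. *Elf5* had 10.09, 10.28 and 10.80 in the control and 6.33, 8.23 and 6.88 in ISM1/ISM2, where replicate 2 stood nearest to the control. It differed by 3.24 ± 0.37 (3.10 on its other probe), *Eomes* by 1.62 ± 0.20 and *Gata2*, a regulator of placental hormone genes, by 1.33 ± 0.20. *Ets2* differed by 1.29 ± 0.23, a call that ended with the control averaged (adjusted p = 0.0824). *Cdx2*, which sets up the lineage, had 12.97, 12.96 and 12.87 against 12.30, 12.62 and 12.15. Its groups did not overlap, but the difference of 0.58 ± 0.27 did not pass (adjusted p = 0.165). It passed without KSOM(aa) replicate 1 or 2 (0.0384) and with only the 6 arrays in the fit (0.0383). *Gata3*, *Tfap2a*, *Tfap2c* and *Tead4*, further factors of the lineage, lay between 0.32 and 0.57 on their brightest probes without passing. Other probes gave 0.47 for *Tfap2a*, -0.66 and 0.82 for *Tfap2c* and -0.47 for *Tead4*, so the direction of the last 2 genes rests on the probe chosen.

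Of 16 genes of the trophectoderm's epithelium and water transport, 3 were higher in the control and 1 lower (median 0.36). Together these were 25% against 16.8% of all units. With only the 6 arrays in the fit or with array weights 6 were higher. The water channel *Aqp8* had 8.40, 8.64 and 7.96 against 5.73, 6.24 and 6.21, with no overlap, and differed by 2.27 ± 0.26 (2.2 on its other probe). *Atp1b1*, a subunit of the sodium pump that drives cavity filling, differed by 1.10 ± 0.18, and *Lgals3*, a galectin, by 1.11 ± 0.23. The junction protein gene *Cldn6* was lower in the control, at -0.91 ± 0.20. *Atp1b1*, *Lgals3* and *Cldn6* did not pass with the control averaged (adjusted p = 0.0642, 0.135 and 0.182). The keratins *Krt7*, *Krt8*, *Krt18* and *Krt19* lay between 0.09 and 0.44 without passing.

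A pair of cathepsin L-like protease genes from a family best known in placenta was also far higher in the control. *Ctsll3* had 9.34, 9.09 and 9.93 in the control and 4.34, 5.72 and 5.35 in ISM1/ISM2, where replicate 2 alone was detected. The difference was 4.32 ± 0.52 (adjusted p = 9.92e-05). *BC051665* had 13.91, 13.87 and 13.82 against 8.10, 10.57 and 10.20, with the control arrays tight and ISM1/ISM2 replicate 1 well below the other ISM1/ISM2 arrays. Its difference was 4.24 ± 0.47, and 3.48 without ISM1/ISM2 replicate 1. The 8 other family members on the array were too dim to be tested.

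Epiblast and pluripotency genes showed no common direction and had 23.1% passing, against 16.8% of all units. Of 13 tested, 2 were higher in the control and 1 lower (median 0.37). The 2 were *Tcl1* and *Sall4*, a zinc finger factor of pluripotent cells, and *Tcl1* alone remained in 9 of the 14 fits without 1 array, those without any HTF/MultiBlast array, any control array, ISM1/ISM2 replicate 1 or 3 or oviduct replicate 2. *Sall4* differed by 0.61 (adjusted p = 0.0465), with an adjusted p of 0.055 to 0.167 in those fits, 0.056 with the authors' values, 0.185 with 75th percentile scaling, 0.0614 with a replicate block and 0.408 with the control averaged. *Nanog* had 11.72, 11.89 and 11.91 in the control and 12.06, 11.97 and 12.11 in ISM1/ISM2, and its difference of -0.20 ± 0.21 did not pass. *Pou5f1* had 7.79, 6.91 and 6.68 against 8.13, 8.22 and 7.86. Its groups did not overlap, though control replicate 1 came within 0.1 of the lowest ISM1/ISM2 array, and the difference of -0.95 ± 0.56 did not pass (adjusted p = 0.285). It passed without KSOM(aa) replicate 1 or 2 (0.0491) and with only the 6 arrays in the fit (0.0402). *Tcl1*, a cofactor of growth signalling in pluripotent cells, differed by 1.48 ± 0.22 (0.99 on its other probe). *Dppa4*, a chromatin protein of pluripotent cells, was lower in the control, at -0.79 ± 0.18 (adjusted p = 0.00951, and 0.206 with the control averaged). *Sox2* differed by 1.04 ± 0.36 without passing (adjusted p = 0.0634). It passed with a replicate block (0.0398), with only the 6 arrays in the fit (0.00697), with array weights (0.00619), without KSOM(aa) replicate 1 or 2 (0.0269) and without oviduct replicate 3 (0.0406).

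Nodal and BMP signals pattern the inner cell mass and the epiblast after implantation. Of 10 tested genes 3 were higher in the control and 0 lower (median 0.52), and 0 passed with the control averaged. *Lefty1*, an inhibitor of Nodal, had 6.15, 6.44 and 6.23 in the control and was undetected on all ISM1/ISM2 arrays, at least 1.86-fold below (adjusted p = 0.00388). *Lefty2*, another inhibitor of Nodal, was detected on 2 control arrays and no ISM1/ISM2 array and was at least 1.24-fold higher in the control. The ligand gene *Bmp4* differed by 1.17 ± 0.35 (adjusted p = 0.0353). That call ended without ISM1/ISM2 replicate 1 (0.075) or 3 (0.128) or without control replicate 1 (0.075), 2 (0.0835) or 3 (0.118). It also ended with the authors' values (0.0546), 75th percentile scaling (0.0533), an offset of 50 (0.0518), only the 6 arrays in the fit (0.0503) or a replicate block (0.0507). Without background correction or the filter on dim probes it ended as well (0.136 and 0.0857). *Id2* and *Id1*, targets of BMP, differed by 0.62 and 0.17 without passing.

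Of 8 genes of DNA methylation and imprint protection, the methyltransferase gene *Dnmt3b* and its cofactor *Dnmt3l* were higher in the control and *Dppa3* was lower. *Dnmt3b* had 13.69, 13.63 and 13.91 in the control and 12.82, 12.88 and 12.73 in ISM1/ISM2, a difference of 0.93 ± 0.17 (1.35 on its other probe). *Dnmt3l* differed by 0.90 ± 0.20. *Dppa3*, which shields the maternal genome from demethylation in the zygote, had 8.53, 8.71 and 8.75 against 10.62, 10.54 and 11.73, with ISM1/ISM2 replicate 3 the highest, and differed by -2.30 ± 0.39. All 3 calls ended with the control averaged (adjusted p = 0.101, 0.154 and 0.0709). *Dnmt1*, the maintenance methyltransferase, differed by 0.38 and did not pass.

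Imprinted genes, which are expressed from one parental copy, moved in both directions. Of 17 tested, 2 were higher in the control and 5 lower, with a median of -0.36. *Igf2* and *Grb10* act on growth signalling, the first as a growth factor and the second as an adaptor that restrains insulin receptors. *Grb10* had 9.95, 10.30 and 10.51 in the control and 8.11, 8.32 and 7.36 in ISM1/ISM2, a difference of 2.32 ± 0.37. *Igf2* had 10.98, 10.57 and 11.43 against 9.85, 9.97 and 9.13 and differed by 1.34 ± 0.25. In both genes every control array was above every ISM1/ISM2 array.

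The lower ones included 3 maternally expressed neighbours of one imprinted domain. *Cdkn1c*, an inhibitor of the cell cycle, had 7.75, 7.39 and 7.15 in the control and 10.46, 9.88 and 9.29 in ISM1/ISM2, a difference of -2.45 ± 0.41. *Slc22a18*, an organic cation carrier, had 5.51, 5.66 and 5.53 against 7.45, 7.23 and 7.57 and differed by -1.85 ± 0.24. *Phlda2*, which limits placental growth, had 8.33, 7.67 and 7.96 against 10.13, 9.11 and 9.11 and differed by -1.47 ± 0.29. None of these groups overlapped. *Mest* and *Impact* were the other lower genes, at -1.35 ± 0.40 and -1.01 (adjusted p = 0.0343 and 0.0409). Both calls ended without ISM1/ISM2 replicate 1 (0.104 and 0.14) or 3 (0.123 and 0.118) or control replicate 1 (0.0762 and 0.1), 2 (0.0824 and 0.147) or 3 (0.111 and 0.0598), and that of *Impact* also without HTF/MultiBlast replicate 3 (0.0577) or oviduct replicate 2 (0.0522). Without either of these ISM1/ISM2 arrays or any 1 control array, 3 genes were lower. Averaging the control left 1 gene passing in each direction, and *Cdkn1c*, *Igf2* and *Phlda2* did not (adjusted p = 0.0571, 0.0515 and 0.0953).

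Interferon and class I antigen presentation genes had 3 of 12 members lower in the control and 0 higher, with a median of -0.18. That was 25% against 16.8% of all units (5 lower with only the 6 arrays in the fit). The 3 were *Oasl2*, described above, *B2m* and *Bst2*. *B2m*, which encodes the light chain of class I molecules, had 6.93, 6.76 and 7.09 in the control and 9.39, 9.06 and 9.77 in ISM1/ISM2, a difference of -2.48 ± 0.34 (-2.71 on its other probe). *Bst2*, which tethers virus particles, had 6.94, 6.58 and 6.69 against 8.14, 7.66 and 7.82 and differed by -1.14 ± 0.29 (adjusted p = 0.0172). That call ended without ISM1/ISM2 replicate 1 (0.0719) or control replicate 2 (0.0691) or 3 (0.0587) and with the control averaged (0.251). The class I heavy chain gene *H2-K1* differed by -0.85 ± 0.30 without passing (adjusted p = 0.0677), with -0.07 on its other probe. *H2-D1* differed by 0.23. *Ifitm3*, *Ifitm2* and *Irf1* lay at 0.64, 0.49 and 0.62 and did not pass.

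Interferon-stimulated response elements were searched as TTTC, any 2 bases and TTTC again, or GAAA, any 2 bases and GAAA on the other strand. All 12 genes had a window. The letters stood in windows of 2 of the 3 passing genes, *B2m* and *Bst2*, and of 3 of the 9 others. Of all genes with a window, 3.99% held them. The stretches show both, at chr2:122147508-122147597 (plus strand) for *B2m* and chr8:71537553-71537642 (minus) for *Bst2*, where 2 matches overlap and the capitals cover both.
B2m: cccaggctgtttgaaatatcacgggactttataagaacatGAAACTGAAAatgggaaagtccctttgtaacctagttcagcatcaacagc
Bst2: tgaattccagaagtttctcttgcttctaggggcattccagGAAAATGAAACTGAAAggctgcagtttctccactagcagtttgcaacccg

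Genes that handle methionine, betaine and choline included some of the largest differences in both directions. Of 12 tested, 2 were higher in the control and 4 lower (median -0.50). *Bhmt* remethylates homocysteine with betaine, and *Bhmt2* does so with S-methylmethionine. *Bhmt* had 7.81, 7.56 and 7.73 in the control and 11.00, 10.81 and 11.32 in ISM1/ISM2, a difference of -3.34 ± 0.31 (adjusted p = 1.62e-05). *Bhmt2* was undetected in the control and at least 10.8-fold higher in ISM1/ISM2, at 9.07, 8.61 and 8.72. *Dmgdh*, which acts on the product of betaine use, was likewise undetected in the control and at least 4.09-fold higher in ISM1/ISM2. *Pemt*, which makes phosphatidylcholine by methylation, had 7.43, 7.64 and 7.57 against 10.74, 10.32 and 10.69 and differed by -3.04 ± 0.43. All 4 genes passed with the control averaged. On the other side, *Slc44a1*, a choline transporter, had 10.52, 10.44 and 10.61 against 6.61, 7.83 and 8.06 and differed by 3.02 ± 0.36 on its brightest probe. Its other probes gave 2.81 and -0.11. *Chka*, the first enzyme of phosphatidylcholine synthesis from choline, differed by 0.97 (adjusted p = 0.0102, and 0.208 with the control averaged), and *Pcyt1a*, which acts after it, by -1.04 without passing (adjusted p = 0.0625). *Mtrr* and *Ahcy*, of the folate-dependent branch and of homocysteine release, did not pass, at -0.68 and -0.13.

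Betaine is also an osmolyte, and its carrier gene *Slc6a12* was undetected in the control, at 5.32, 4.99 and 5.31, against 7.22, 7.39 and 6.96 in ISM1/ISM2. ISM1/ISM2 was at least 3.54-fold higher (adjusted p = 5.75e-05). It was the 1 passing gene of 6 on osmolyte transport and response, a share of 16.7% against 16.8% of all units. *Slc6a6*, the taurine carrier, differed by 0.12, and *Nfat5*, the factor that answers hypertonic medium, by 0.70, neither passing.

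Antioxidant and glutathione genes were lower in the control at 7 of 17 members and higher at 0, with a median of -0.67. *Sod1*, the cytosolic superoxide dismutase, had 11.46, 11.32 and 11.07 in the control and 12.93, 12.88 and 12.90 in ISM1/ISM2, a difference of -1.62 ± 0.18 (adjusted p = 4.72e-05). *Gclm*, a subunit of the enzyme that starts glutathione synthesis, had 8.37, 8.0 and 8.12 against 10.23, 9.42 and 9.88 and differed by -1.68 ± 0.27. *Gstp1*, a glutathione transferase, had 9.36, 9.19 and 8.80 against 10.82, 10.67 and 10.46 and differed by -1.53 ± 0.21. In all 3 genes the groups were apart by over 1 log2. *Srxn1*, which repairs peroxiredoxins, differed by -1.30 ± 0.31 (adjusted p = 0.0113, 0.0571 without ISM1/ISM2 replicate 1 and 0.0562 without control replicate 3), with -2.47 and -2.35 on its other probes. *Cat*, *Gpx1* and *Txn1*, for catalase, glutathione peroxidase and thioredoxin, passed at -0.91, -0.83 and -0.69. The *Cat* call ended without ISM1/ISM2 replicate 3 (0.0927) or any 1 control array (up to 0.0846), and the *Gpx1* call without ISM1/ISM2 replicate 2 (0.101) or 3 (0.0629) or control replicate 2 (0.0875) or 3 (0.102). The *Txn1* call ended without any 1 of the 6 arrays of the 2 groups (up to 0.157), oviduct replicate 2 or HTF/MultiBlast replicate 2 or 3. *Hmox1*, *Mt1* and *Sod2* lay at 0.69, 0.17 and 0.14 and did not pass. Of the list's members 4 were lower without ISM1/ISM2 replicate 3 or control replicate 2 and 3 without control replicate 3. Of the 7, 2 passed with the control averaged, and *Gclm* stood just outside (adjusted p = 0.0503).

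The core of the antioxidant response element was searched as TGACNNNGC, or GCNNNGTCA on the other strand. It was found for 3 of 7 passing genes with a window and for 3 of 8 that did not pass. Of all genes with a window 14% hold it, and 15 of the 17 genes had a window. The stretches show *Sod1* at chr16:90220666-90220754 and *Gclm* at chr3:122245383-122245471, both on the plus strand and with the match in capitals.
Sod1: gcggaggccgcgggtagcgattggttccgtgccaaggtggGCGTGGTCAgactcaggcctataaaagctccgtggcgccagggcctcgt
Gclm: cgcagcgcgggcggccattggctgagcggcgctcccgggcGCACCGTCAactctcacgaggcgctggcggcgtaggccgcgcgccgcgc

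Cholesterol and fatty acid synthesis genes had 8 of 25 members lower in the control and 0 higher, with a median of -0.84, and 23 of the 25 differences were below 0. *Ebp*, a sterol isomerase, had 9.54, 9.81 and 9.60 in the control and 12.26, 12.03 and 12.23 in ISM1/ISM2, a difference of -2.52 ± 0.27. *Fads2*, a fatty acid desaturase, was undetected in the control and at least 2.85-fold higher in ISM1/ISM2, at 7.62, 6.40 and 6.61. Of the earlier steps, *Fdps*, which makes farnesyl diphosphate, differed by -1.07 ± 0.20 and *Lss*, which closes the sterol rings, by -1.38 ± 0.32 (adjusted p = 0.0518 without control replicate 3). *Tm7sf2*, a sterol reductase, was undetected in the control and at least 1.64-fold higher in ISM1/ISM2. *Hmgcs1* and *Sqle*, enzymes before and at the entry to sterols, differed by 0.04 and -0.33, and the regulator *Srebf2* by -0.17, none passing. Over the fits with 1 array left out 6 to 9 members passed. Averaging the control left 2 passing members, and *Fdps*, *Tm7sf2* and *Lss* were not among them (adjusted p = 0.093, 0.0919 and 0.178).

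Lysosome genes were lower in the control at 4 of 18 and higher at 0 (median -0.43), a share of 22.2% against 16.8% of all units. There were 2 lower without ISM1/ISM2 replicate 2 and 8 with array weights. Without background correction or with only the 6 arrays in the fit 7 were lower. *Cd63*, a membrane protein of late endosomes, had 12.69, 12.87 and 12.56 in the control and 13.36, 13.43 and 13.62 in ISM1/ISM2 and differed by -0.76 ± 0.16. The protease gene *Ctsh* differed by -0.94 ± 0.21. The list of p53 pathway and apoptosis genes had 4 of 14 members lower and 0 higher (median -0.20). That was 28.6% against 16.8% of all units. There were 2 lower without ISM1/ISM2 replicate 1 or control replicate 2 or 3, and 7 with array weights. Among the 4 were *Ccng1* at -0.98 ± 0.22 and the death gene *Bcl2l11* at -0.94 ± 0.22. *Cdkn1a*, the best known target of p53, did not pass (-0.50, adjusted p = 0.364). Of 11 heat shock chaperones 1 passed, *Dnaja1* at -1.30 ± 0.37 (adjusted p = 0.0289), which did not pass without any 1 of the 6 arrays of the 2 groups (up to 0.121 without control replicate 2). Nor did *Dnaja1* pass with the authors' values (0.0729) or without the filter on dim probes (0.0742). In those fits the list's 1 call was instead *Hspa9*, higher in the control (0.0416 and 0.00419), which did not pass in the main fit. *Hspa9* also passed as higher without background correction (0.00334), with an offset of 50 (0.0209) and with detection on all 6 arrays (0.0474). It did so too with only the 6 arrays in the fit (0.0445), with array weights (0.0125) and without oviduct replicate 1 (0.0382). With the control averaged, 0 members of these 3 lists passed.

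Hypoxia-linked genes split. *Vegfa* was higher in the control, as was *Ndrg1*, with 13.24, 13.21 and 13.03 against 11.16, 12.09 and 11.70 and a difference of 1.51 ± 0.22 (1.60 on its other probe). *Egln3*, an oxygen sensor that hypoxia induces, was lower, with 4.54, 5.62 and 5.18 in the control and 8.61, 7.78 and 7.56 in ISM1/ISM2, a difference of -2.87 ± 0.47. It was detected on 1 control array. *Bnip3*, *Pdk1* and *Kdm3a*, further targets of the hypoxia factor, differed by 0.05, 0.14 and -0.21 and did not pass. Of 12 genes of glycolysis and glucose transport 25% passed, against 16.8% of all units. *Pfkm* and *Ldha* passed as higher (0.93 ± 0.26 and 0.83 ± 0.26) and *Pkm* as lower (-1.27 ± 0.34), at adjusted p of 0.0248, 0.0414 and 0.0191. Each of these 3 calls ended without ISM1/ISM2 replicate 2 (0.0812, 0.169 and 0.0729) or control replicate 3 (0.063, 0.156 and 0.0803). Without ISM1/ISM2 replicate 3 or control replicate 2 *Pfkm* and *Ldha* did not pass, nor did *Ldha* without HTF/MultiBlast replicate 1 or 3 or *Pkm* without ISM1/ISM2 replicate 1. The *Ldha* call also ended with the authors' values (0.0531) or 75th percentile scaling (0.0575), and without background correction (0.0541) or the filter on dim probes (0.0713). None of the 3 passed with the control averaged. The glucose carriers *Slc2a1* and *Slc2a3* differed by -0.48 and 0.36 without passing.

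Housekeeping groups had shares of passing members below the 16.8% of all units. In the respiratory chain 1 of 73 was higher in the control and 5 were lower (median -0.08). The 5 became 1 without control replicate 2, 2 without control replicate 1 or 3, ISM1/ISM2 replicate 1 or 2 or the filter on dim probes, 3 with 75th percentile scaling and 0 with the control averaged, and array weights gave 8. *Cox6a2*, the heart and muscle form of a cytochrome oxidase subunit, had 7.35, 7.69 and 7.79 in the control and was undetected in ISM1/ISM2, at least 4.71-fold below. *Cox7a1*, another muscle form, went the other way, with 6.23, 6.41 and 6.59 against 7.89, 7.48 and 7.77 and a difference of -1.30 ± 0.28 (adjusted p = 0.148 with the control averaged). Of 54 cytosolic ribosomal proteins 1 was higher, *Rpl22* at 0.93 ± 0.19, and 3 lower, *Rpl24* at -1.18 ± 0.24, *Rpl39l* at -1.24 ± 0.28 and *Rps15* at -0.61 ± 0.18, of which *Rps15* was lost without any 1 of ISM1/ISM2 replicates 1 and 2 and the 3 control arrays (up to 0.121). Ribosomal protein genes have many processed copies that can share probe sequence. Of 18 cell cycle genes *Ccnd1* was higher, at 1.71 ± 0.37, and *Ccne1* lower, at -1.37 ± 0.27. *Pcna*, *Mcm2* and *Top2a* differed by 0.18, -0.00 and 0.14. None of the 4 ribosomal genes and 2 cyclin genes passed with the control averaged.

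Oocyte and maternal-effect genes were lower in the control at 4 of 8 tested members and higher at 0 (median -0.95). *Padi6*, needed for the cytoplasmic lattices of the oocyte, had 5.93, 6.44 and 6.39 in the control and 8.80, 8.17 and 8.99 in ISM1/ISM2, a difference of -2.40 ± 0.34. *Dppa3* is also in this list, which had 2 lower members without ISM1/ISM2 replicate 1 or control replicate 1 or 3. *Nlrp14* differed by -1.22 ± 0.32 and was lost without ISM1/ISM2 replicate 1 (adjusted p = 0.0826) or control replicate 1 (0.0911) or 3 (0.0833). *Khdc3* and *Tle6*, partners in the maternal complex, differed by -0.14 and 0.41 without passing. Germline antigen genes were lower at 5 of 8 and higher at 0, with a median of -1.35. The 5 became 2 without ISM1/ISM2 replicate 3, control replicate 1 or 2 or the filter on dim probes, and 3 without ISM1/ISM2 replicate 1 or 2 or HTF/MultiBlast replicate 1 or 3 and with the authors' values. Of the 5, *Magea5* and *Tex19.1* lost their calls in most of those fits (adjusted p up to 0.172 and 0.148, without control replicate 2 and control replicate 1). *Asz1*, of the piRNA pathway, had 7.43, 7.17 and 8.01 against 9.85, 9.81 and 10.11, with no overlap, and differed by -2.38 ± 0.34. *Tdrd12*, of the same pathway, differed by -1.32 ± 0.23. *Magea2* had 8.13, 7.61 and 9.41 against 9.51, 9.62 and 10.55, where control replicate 3 came within 0.1 of ISM1/ISM2 replicate 1. Its difference of -1.51 ± 0.43 was lost without ISM1/ISM2 replicate 3 (adjusted p = 0.11), control replicate 1 (0.0963) or 2 (0.125) or the filter on dim probes (0.076). Probes of the near-identical *Magea* genes may share signal. *Padi6* and *Asz1* alone passed in these 2 lists with the control averaged, where *Tdrd12* had an adjusted p of 0.0719.

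Genes of the 2-cell stage, which are switched on at genome activation and again in rare cells of stem cell cultures, passed at 0 of 5, but ISM1/ISM2 replicate 3 stood apart. *Tcstv3* had 5.08, 5.38 and 5.04 in the control and 7.85, 7.40 and 12.67 in ISM1/ISM2. *Tcstv1* had 4.71, 4.84 and 4.92 against 6.06, 6.41 and 11.79. *Zscan4c*, *Zfp352* and *Tdpoz4* reached 7.61, 6.82 and 7.22 on ISM1/ISM2 replicate 3 and were undetected on the 5 other arrays. For *Tcstv3* and *Tcstv1* all ISM1/ISM2 arrays were above all control arrays, and for the 3 others replicates 1 and 2 lay at background. The differences of *Tcstv3* and *Tcstv1* were -4.14 ± 1.45 and -3.26 ± 1.37 (adjusted p = 0.0682 and 0.127). *Tcstv3* passed with a replicate block (0.0345), with only the 6 arrays in the fit (0.035), with array weights (0.0323) and without oviduct replicate 2 (0.0488). The list's median was -0.97, and between -1.56 and 0.01 over the fits with 1 array left out.

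**Figure D4:**
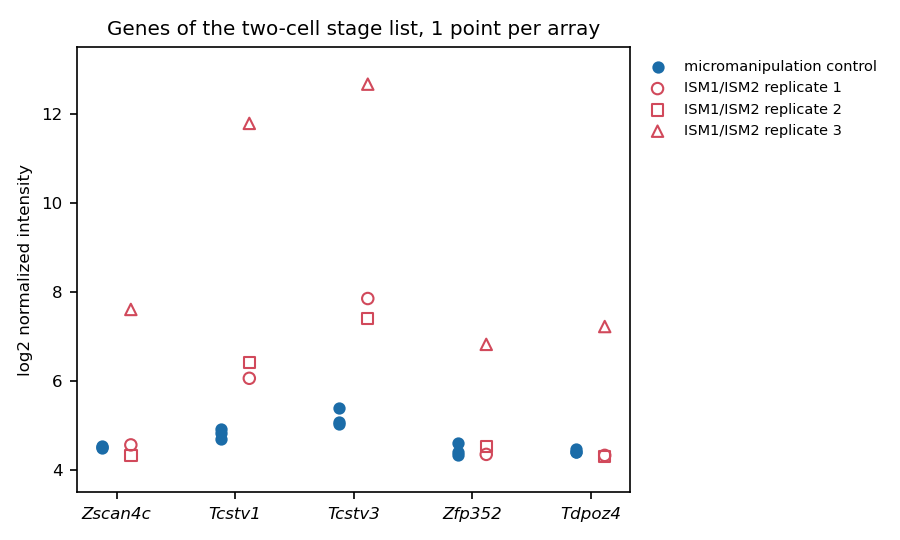
Log2 normalized intensity of the 5 genes of the 2-cell stage list on each control array (filled circles) and on ISM1/ISM2 replicates 1 (open circles), 2 (squares) and 3 (triangles). Replicate 3 is the highest array for all 5 genes, and *Tcstv1* and *Tcstv3* are above the control on all ISM1/ISM2 arrays.

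Without ISM1/ISM2 replicate 3, 1180 units passed in all, of which 1064 were among the 1455. Of 9 genes of muscle-type cytoskeleton 1 was higher in the control, *Fhl1*, and 2 lower, *Actn2* and the tropomyosin gene *Tpm2*, with 6.27, 6.69 and 6.07 against 8.18, 7.71 and 8.05 and a difference of -1.64 ± 0.25. The actin genes *Acta1* and *Acta2* differed by -0.26 and 0.21 and did not pass.

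The control was also set against the groups oviduct and KSOM(aa), to see where it stood beside other embryos of the series. Comparisons that share the control arrays are not independent, and each is given by its own values. Over all units, group means differed with a root mean square of 0.737 log2 between the control and ISM1/ISM2, 0.489 between the control and oviduct, 0.354 between the control and KSOM(aa) and 0.454 between the control and HTF/MultiBlast. The same measure was 0.840 between oviduct and ISM1/ISM2 and 0.702 between KSOM(aa) and ISM1/ISM2. The within-group SD was 0.249 in the control, the lowest of the 5 groups, and 0.377 in ISM1/ISM2. Against oviduct, 37 units (0.427%) passed, 13 higher in the control (0.15%) and 24 lower (0.277%), with 1476 at an unadjusted p under 0.05. The 37 became 1, 5 and 8 without control replicate 1, 2 and 3, 140 without oviduct replicate 2, 93 without oviduct replicate 1, 174 without either KSOM(aa) array and 23 without HTF/MultiBlast replicate 3. Against KSOM(aa), 0 units passed in limma's test with 2 KSOM(aa) arrays of wide spread (within-group SD 0.572), while 426 had an unadjusted p under 0.05 and 124 passed without KSOM(aa) replicate 1.

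Of the 24 genes plotted by array above, 2 passed between the control and oviduct, *Ctsll3*, with a mean of 12.51 in oviduct against 9.45 in the control, and *Tex19.2*, with 9.72 against 8.12 (adjusted p = 0.0193 and 0.0247), and 0 passed against KSOM(aa). *Slc7a3* had a mean of 11.58 in oviduct and 10.48 in KSOM(aa), against 11.01 in the control. *Nupr1* had 10.24 and 9.25 against 10.28, and *Lama1* 11.71 and 11.24 against 11.55. *Oasl2* had 4.37 and 4.46 against 4.52, and was undetected in all 3 groups. Of these 4 genes, chosen as examples, none passed between the control and either group, and HTF/MultiBlast means were 8.77, 7.32, 10.04 and 6.41. By list, the median difference of the control from oviduct and from KSOM(aa) was -0.50 and 0.28 for amino acid transporters, -0.08 and 0.23 for ATF4 factors, -0.29 and 0.17 for basement membrane and -0.19 and -0.11 for cholesterol and fatty acid synthesis. Members of these 4 lists that passed against oviduct or KSOM(aa) numbered 0, where 0.427% and 0% of all units passed. The lists of Nodal signalling, imprinted, glycolysis, antioxidant, muscle-type and cathepsin genes each had 1 member passing against oviduct.

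**Figure D5:**
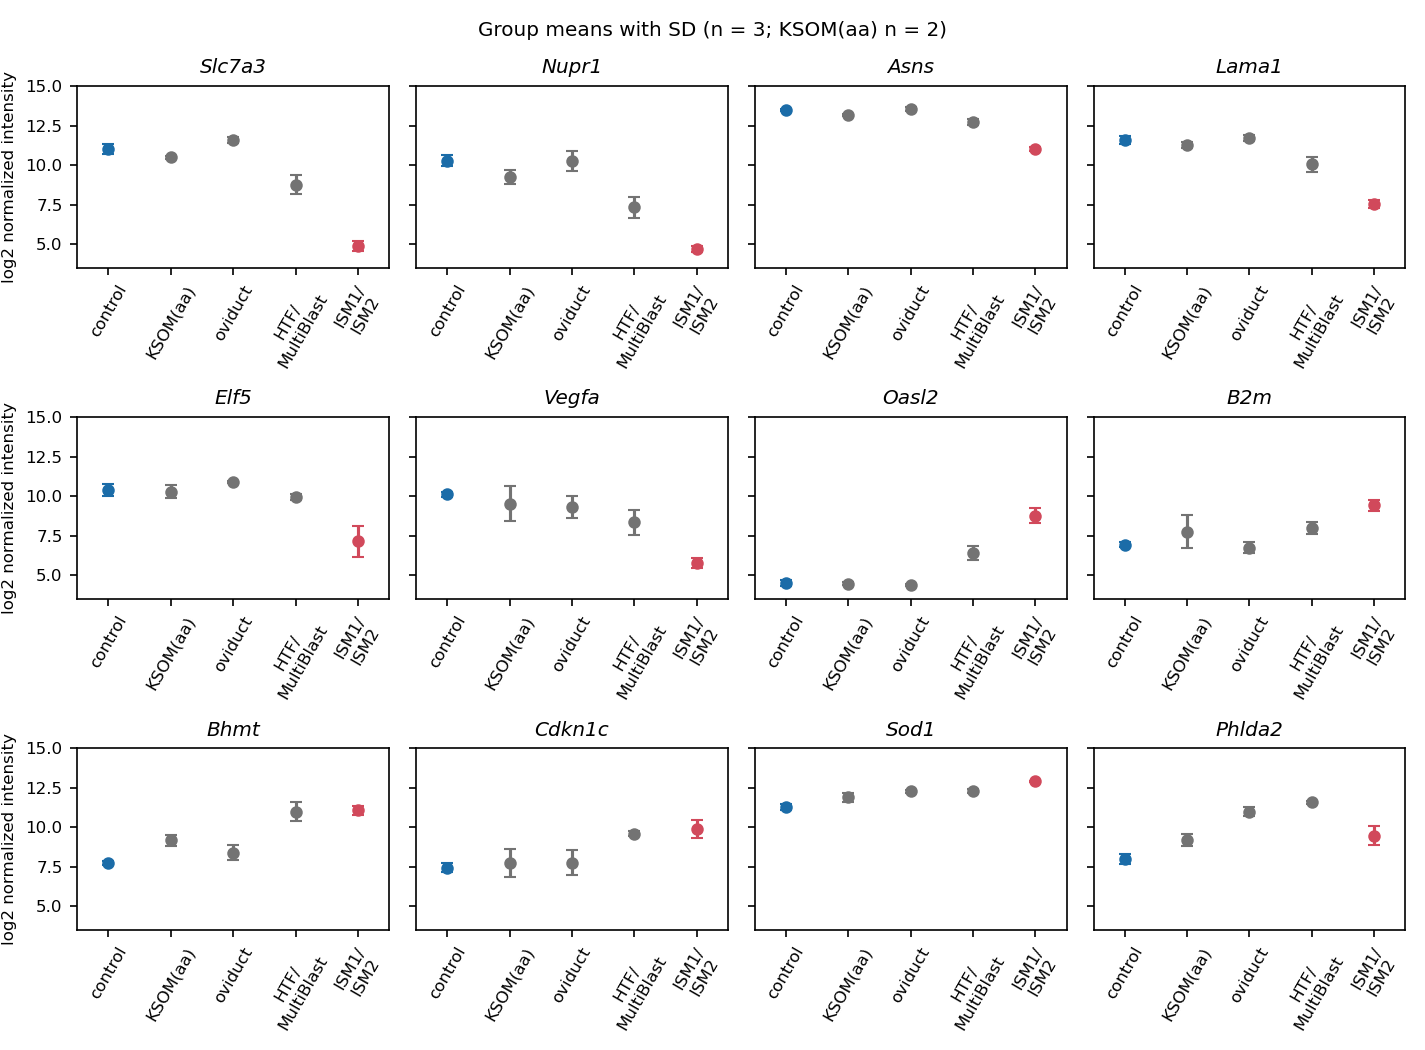
Mean log2 normalized intensity with SD of 12 genes in the control, KSOM(aa), oviduct, HTF/MultiBlast and ISM1/ISM2 (3 arrays each, 2 for KSOM(aa)). For *Slc7a3*, *Nupr1* and *Lama1* ISM1/ISM2 is the lowest group and HTF/MultiBlast lies between it and the others, while *Phlda2* is lowest in the control.

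Of the 1455 units, 15 (1.03%) also passed between the control and oviduct, 10 with the control highest or lowest of the 3 groups and 5 with the control between ISM1/ISM2 and oviduct. *Phlda2* had the smallest p of these. Its mean was 8.0 in the control, 9.45 in ISM1/ISM2 and 10.97 in oviduct, so the control was the lowest, at -1.47 ± 0.29 against ISM1/ISM2 and -2.99 ± 0.29 against oviduct (adjusted p = 0.000766). *Tpm2* was also lowest in the control, at -1.92 against oviduct (adjusted p = 0.00861), as was *Crym*, a thyroid hormone binding protein, at -0.88 ± 0.24 against ISM1/ISM2. *Ak3*, a mitochondrial adenylate kinase, was highest in the control, by 1.02 ± 0.22 over ISM1/ISM2 and with a mean of 8.11 in oviduct. *Msx1*, a homeobox gene detected on 2 control arrays, and *Fam25c* lay between ISM1/ISM2 and oviduct, with means of 7.80 and 10.05 in oviduct. *Ctsll3* did so too, at -3.06 against oviduct (adjusted p = 0.0193). The *Crym* call against ISM1/ISM2 was lost without any 1 of the 3 control arrays or of ISM1/ISM2 replicates 1 and 2 (up to 0.0973). It was also lost with 75th percentile scaling (0.0644). The *Msx1* call was lost without control replicate 3 (0.0598) or background correction (0.119). With the control averaged, 0 units passed against oviduct, and the calls against ISM1/ISM2 ended for *Phlda2* (0.0953), *Crym* (0.296), *Ak3* (0.143), *Msx1* (0.115) and *Fam25c* (0.106).

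No unit of the 1455 passed between the control and KSOM(aa). The 6 with the smallest p there were *Rnf144b*, *Ccdc50*, *Bhmt*, *Reep1*, *Dusp14* and *Tmem254a*. *Reep1*, a shaping protein of the endoplasmic reticulum, had 10.32, 10.41 and 10.45 in the control and 12.40, 12.04 and 12.41 in ISM1/ISM2, a difference of -1.89 ± 0.17, with a mean of 11.21 in KSOM(aa). *Tmem254a* differed by -1.57 ± 0.23 between the control and ISM1/ISM2, with a mean of 10.78 in KSOM(aa) and 9.69 in the control. *Rnf144b*, a ubiquitin ligase, was undetected in ISM1/ISM2 and at least 1.18-fold higher in the control. *Ccdc50* had 7.60, 7.75 and 7.51 in the control and 6.49 to 6.57 in ISM1/ISM2, and differed by 1.08 ± 0.19. *Dusp14*, a phosphatase gene, differed by -0.64 (adjusted p = 0.0462), a call that ended without HTF/MultiBlast replicate 2, oviduct replicate 2 or any 1 of the 6 arrays of the 2 groups (up to 0.153, without control replicate 2). It also ended with 75th percentile scaling (0.0624). The calls of *Ccdc50* (0.0873), *Rnf144b* (0.092) and *Dusp14* (0.391) ended with the control averaged.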

How the data were processed

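RNA of 14 mouse samples was hybridised to Illumina bead arrays of one colour. Each deposited intensity is the summary of a probe's beads, made in BeadStudio 3.2 per the submitters' processing notes and neither background-corrected nor normalized. The deposited detection p-values set each probe against the negative controls of its array. The authors' deposited log2 values, for which the notes name lumi and RMA, have a median of 2.889 on every array and order probes as the intensities do (rank correlation 1), so their direction is known, while their offset and background step are not. They served as an alternative.

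Intensities were processed with neqc, which estimated the negative controls from the detection p-values, corrected the background, quantile-normalized and took log2 (limma 3.58.1, R 4.3.3, offset 16), which gave a median of 4.686 per array. Of all probes, 23978 had 1 gene symbol and 1719 none, and the gene IDs of 23962 were in the RefSeq table. A probe was kept at a detection p under 0.01 on at least 2 of 14 arrays, and each symbol took its probe with the highest mean. Differences came from a limma linear model over the 5 groups with moderated variances, which had 9 residual degrees of freedom and a prior of 4.32. Their median SE was 0.256 log2. The two-sided p-values were Benjamini-Hochberg adjusted over all 8669 units, with a threshold of 0.05. Where a group was undetected on all its arrays, the fold is a bound within the neqc values, not over other background steps. It was computed against the lowest signal detected on each array, or the probe's own signal if higher.

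The members and gene lists were chosen with earlier results of these data known. Named genes were the 12 largest differences in each direction among passing genes without overlap that passed without any 1 of the 6 arrays, in each list with 5 or more tested genes the (up to) 4 of smallest p, *Pou5f1*, *Nanog*, *Cdx2* and *Gata6*, and the 6 passing genes with the smallest p against oviduct and against KSOM(aa). Other list members named in the text lie outside that rule and were chosen after their values were seen. The steps were tested on simulated data.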

Additional observations from a re-analysis of the deposited data

How the results depend on the processing

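In 24 alternatives fitted by unit, 14 of them leaving out 1 array each, the 1455 units kept their sign wherever they were tested. When detection on all 6 arrays was asked, 1000 of them were tested. Units were chosen anew in that fit and in the fit without the filter on dim probes, and were the same otherwise. With every probe on its own 1739 probes passed. The number passing was 2277 with only the 6 arrays in the fit, 2828 with array weights (0.335 to 3.08 per array), 286 with the control averaged to 1 sample, which leaves that group a lone sample assumed to vary like the others, and 926 to 1729 without 1 array. Higher in the control were then 1097, 1359, 134 and 425 to 826, and lower 1469 with array weights, 152 with the control averaged and 501 to 929 without 1 array. Units passing by 2-fold were 339 without background correction, 560 with detection on all 6 arrays, 286 with the control averaged and 746 to 979 without 1 array. Control against oviduct gave 15 with the authors' values, 24 without the filter on dim probes, 490 with array weights, 0 with the control averaged and 1 to 174 without 1 array. Control against KSOM(aa) gave 0 to 124 without 1 array. Of the 122 named genes that passed, 99 passed in every fit without 1 array and 63 with the control averaged. Over all alternatives the named genes kept their side of the threshold in 3179 results, lost the call in 198 and gained it in 60. A reversed direction with a call in either fit occurred in 0. Changes of sign without a call in either fit, as for *Tdpoz4* and *Zfp352*, were counted among the 3179. Same-numbered arrays share only a number: their deviations from the group means correlated at 0.055, 0.022 and 0.053, and 1 of 3 control arrays correlated best with its own number. With a replicate block 1462 units passed, 1370 of them among the 1455. Slide as a block was not run, since the files used here name no slide. Signal over background limits the 181 and 110 passing units that one group did not detect.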
